A study of Homo sapiens with 3 samples.

Results

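Domain II of 28S ribosomal RNA after the expansion segment ES7L was examined as the run of positions 1312 to 2300 of the mature rRNA, chosen by position alone. It holds 989 of the 5070 positions of 28S, or 19.5% of its length, and of the 7218 positions measured on 4 rRNAs. The data come from 293T cells, a human cell line of embryonic kidney origin, in which RNA bound by METTL5 was mapped by eCLIP. The assay uses UV light to fix RNA to the proteins it touches, pulls down 1 protein and sequences what is bound to it. Both eCLIP libraries were made with anti-HA beads from a 293T line with stable METTL5-HA, and the Input library came from 293T cells labelled WT, so eCLIP and Input differ in genotype as well as in the pulldown. All 3 libraries came from UV-crosslinked cells. Nothing given says how many clones the stable cells comprise, or that separate cultures gave the 2 eCLIP libraries, and no pulldown from untagged cells was analysed here. The table holds rRNA only, so the cell type could not be checked against its markers.

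METTL5 is the methyltransferase that places N6-methyladenosine near the 3′ end of 18S rRNA in the small ribosomal subunit. 28S is the main rRNA of the large subunit and folds into domains around the peptidyl transferase centre. Domain II carries the GTPase-associated centre, where the protein uL11 and the stalk proteins help translation factors to hydrolyse GTP. It also carries ES15L, an extension that bacterial ribosomes lack and that reaches out from the core. No 28S sequence was used here, so neither element was placed at a position within the domain and no bases are printed. The rRNA genes are near-identical copies on several chromosomes, so reads cannot be assigned to a copy. Of 5 annotated 28S genes, RNA28SN5 has the length of the table's 28S. Positions are therefore given along the mature rRNA, counted from 1.

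Each value was read as the depth of a position, the number of reads that cover it. The 2 eCLIP libraries had summed 28S depths of 16741900 (replicate 1) and 6693904 (replicate 2), and Input had 31012015. With 75 nt as the span of a read, the domain held about 39463, 18538 and 72949 reads. No position of any library reached above 7986 on any of the rRNAs. No source used here says whether depth was limited when the table was made. Input lay at 4000 reads or more at 99.4% of positions of the domain, while the eCLIP replicates did so at 31.0% and 0.809%.

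As a whole, the domain took a share of 28S depth close to its length in every library. The share was 17.7% in eCLIP replicate 1 (exact 95% binomial interval 17.5% to 17.8%), 20.8% in eCLIP replicate 2 (20.5% to 21.04%) and 17.6% in Input (17.5% to 17.8%). These intervals cover counting error only. Replicate 2 lay above Input and replicate 1 had the same share as Input within counting error. The mean over the eCLIP replicates was 19.2% ± 2.19 (SD, n = 2), and the log2 ratio of the eCLIP share to the Input share was 0.0030 for replicate 1 and 0.24 for replicate 2. Their mean was 0.12 ± 0.164 (SD, n = 2). The difference from Input was smaller than the spread between replicates. With both ends moved outwards by 50 nt it was 0.20 ± 0.187 (SD, n = 2), above that spread, and with both moved inwards it was 0.042 ± 0.111. A permutation test of 2 libraries against 1 cannot give a one-sided p below 0.333, so no test of the share was made.

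Within the domain the eCLIP profile was far from level. Depth per position ran from 508 to 5557 reads in eCLIP replicate 1, with a median of 2664. It ran from 90 to 4032 in eCLIP replicate 2, with a median of 1032. Input stayed between 2882 and 6117, with a median of 5572. The coefficient of variation over positions was 49.6% and 79.3% in the eCLIP replicates and 6.47% in Input. On the other 28S positions it was 59.8%, 101.0% and 19.4%. The domain thus lacks the extremes of 28S, whose depth elsewhere went down to 3, 1 and 70 reads and up to 7465, 7672 and 7986.

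**Figure D1:**
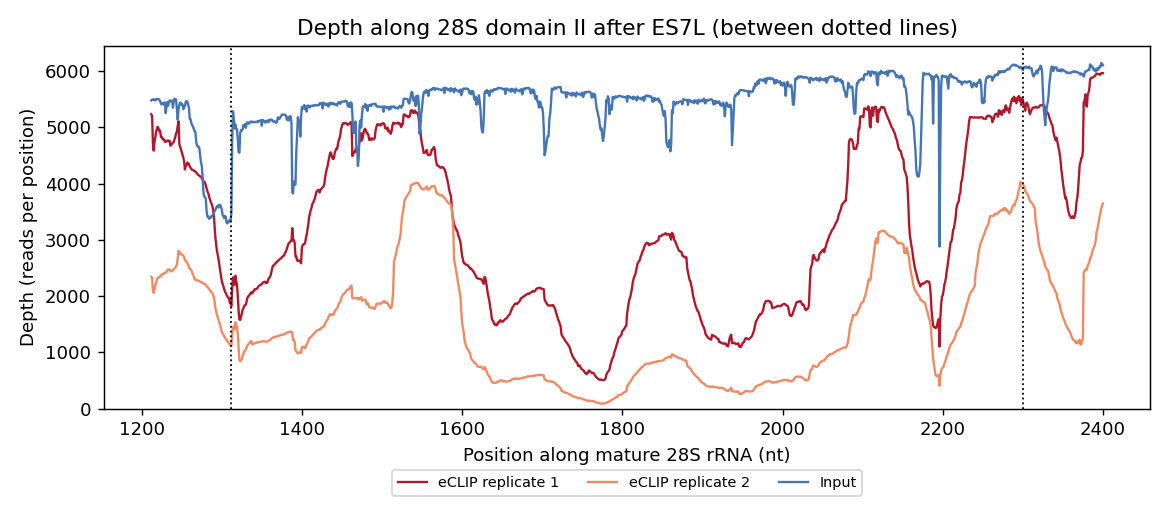
Depth in reads per position (vertical axis) along mature 28S rRNA (horizontal axis, nt) for the 2 eCLIP libraries and Input, with 100 nt on either side of the domain. Dotted lines mark positions 1312 and 2300. Input stays between 2882 and 6117 within the domain, while both eCLIP libraries rise near 1537, fall to their lowest depth near 1776 and rise again towards 2300.

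Both eCLIP libraries shared the order of high and low stretches. Across the 989 positions, which are not independent because a read covers many of them, depth in the eCLIP replicates had a Pearson's r of 0.859 and a Spearman's rho of 0.921. Against Input, r was 0.199 for replicate 1 and 0.177 for replicate 2. The corresponding r between eCLIP replicates on the other 28S positions was 0.738, with rho = 0.913.

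The domain was divided into 20 windows of 50 nt, the first of which, 1301 to 1350, starts 11 nt before it. Windows were then joined where both eCLIP replicates lay on the same side of their own mean depth on 28S, 3302 reads in replicate 1 and 1320 in replicate 2. This rule was set after the profiles were seen, and its stretches are a description. They were chosen on eCLIP depth while Input was near level, so their contrast with Input follows largely from that choice. It gave a low start at 1301 to 1400, a high stretch at 1401 to 1600, a long low stretch at 1601 to 2050, and high stretches at 2101 to 2150 and 2201 to 2300. The windows 2051 to 2100 and 2151 to 2200 were split between replicates.

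The long low stretch, 1601 to 2050, averaged 1798 reads per position in eCLIP replicate 1 and 512.6 in replicate 2, or 0.545 and 0.388 times the 28S mean of each library. Input had 5550 reads there, 0.907 times its own 28S mean. The stretch held 4.83% and 3.45% of 28S depth in eCLIP and 8.05% in Input. The log2 ratio of these shares was -0.74 and -1.22. All 9 of its windows, chosen for low eCLIP depth, had a lower share of 28S depth than in Input in both replicates. Their log2 ratios ran from -1.95 to -0.18 in replicate 1 and from -2.98 to -0.55 in replicate 2. The direction depended on the scaling: with TMM over all 4 rRNAs, 4 of these 9 windows had edgeR log2 fold changes above 0, up to 0.48, and 5 below. With DESeq2, 2 of the 9, 1801 to 1850 and 1851 to 1900, were called higher in eCLIP (log2 fold changes 0.49 and 0.65, adjusted p = 0.00359 and 0.000234).

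The lowest depth of the domain lay inside this stretch, in the window from 1751 to 1800. The eCLIP replicates averaged 757.5 and 148.4 reads per position in it, and Input averaged 5420. Both eCLIP libraries were low there while Input was near its level in the rest of the domain. Among the 102 windows of 28S it was the 7th shallowest in replicate 1 and the 5th shallowest in replicate 2, but the 19th shallowest in Input. The single lowest positions were 1776 in replicate 1, with 508 reads, and 1778 in replicate 2, with 90 reads.

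In edgeR's quasi-likelihood test of eCLIP against Input, fitted on all 147 windows of the 4 rRNAs with TMM scaling, 1 of the 20 windows passed an adjusted p of 0.05 as lower in eCLIP and 0 as higher. The passing window was 1751 to 1800, with an edgeR log2 fold change of -1.58 (adjusted p = 0.00178) and values of -1.31 in replicate 1 and -1.92 in replicate 2. Over all windows, 34.7% were called lower and 3.40% higher. On 28S outside the domain, 13.4% of 82 windows were called lower and 6.10% higher. The domain's 1 of 20 is below the share called lower on the rest of 28S. The median edgeR log2 fold change was 0.93 in the domain, 0.50 in the other 28S windows and -0.16 over all windows. Only the 2 eCLIP libraries inform the estimate of spread, with 1 residual degree of freedom, since Input has no replicate. The prior of the fit carried unlimited weight, and no window kept a spread of its own. The adjusted p of 1751 to 1800 thus rests on a spread modelled over the 147 windows as a trend with depth. It does not rest on how its own replicates differ. Unadjusted edgeR p was 0.129 at 2251 to 2300 (log2 fold change 2.05) and 0.0264 at 1301 to 1350 (0.89). It therefore did not follow the size of the change alone.

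At an unadjusted p under 0.05, edgeR had 6 of the 20 windows of the domain higher and 1 lower, against 9 higher and 13 lower of the other 82 windows of 28S. The counts differed between tools. DESeq2's Wald test called 11 of the 20 windows higher and 3 lower. It called 35.4% of all windows higher and 38.1% lower. Of the 82 windows of 28S outside the domain it called 41 higher and 16 lower. Its 3 lower windows were 1751 to 1800, 1701 to 1750 (DESeq2 log2 fold change -0.43, adjusted p = 0.0213) and 1901 to 1950 (-0.49, adjusted p = 0.00418). With edgeR these last windows had log2 fold changes of -0.59 (adjusted p = 0.220) and -0.66 (adjusted p = 0.184). The call of 1751 to 1800 was lost with windows of 100 nt, where edgeR gave 1701 to 1800 a log2 fold change of -1.05 (adjusted p = 0.0688).

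**Figure D2:**
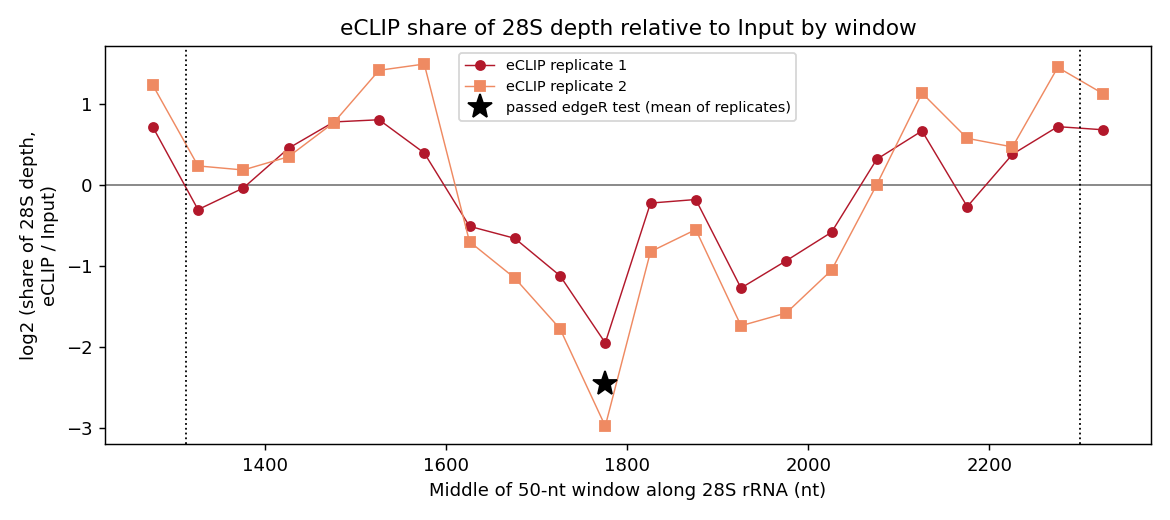
Log2 ratio of eCLIP to Input in the share of 28S depth, for each replicate (vertical axis) for the 20 windows of 50 nt and 1 window on either side (horizontal axis, middle of the window in nt). Circles and squares are replicates 1 and 2, dotted lines mark the ends of the domain, and the star marks the window 1751 to 1800, which passed edgeR's test. The 9 windows from 1601 to 2050, a stretch chosen for low eCLIP depth, lie below 0 in both replicates.

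The low stretch was not uniform. Depth in eCLIP rose from its minimum to an inner maximum at position 1862 in both replicates, with 3126 reads in replicate 1 and 966 in replicate 2. These are 6.15 and 10.7 times the minimum. It fell again to 1095 and 257 reads, in both replicates at position 1948. Mean depths of the inner windows 1801 to 1850 and 1851 to 1900 were 2551 and 2541 reads in replicate 1, 672.7 and 785.2 in replicate 2, and 5513 and 5325 in Input. After the inner maximum, 1901 to 1950 had 1217, 352.2 and 5443 reads in replicate 1, replicate 2 and Input, and 1951 to 2000 had 1630, 416.5 and 5770. Before the minimum, 1651 to 1700 had 1923, 547.0 and 5620 reads and 1701 to 1750 had 1360, 345.4 and 5477. Both replicates thus showed a pair of minima with a rise between them, while the highest depth of Input was 1.31 times its lowest over the whole stretch.

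The high stretches, chosen for high eCLIP depth, together span 350 nt, or 6.90% of the length of 28S. They held 9.71% and 13.5% of 28S depth in eCLIP replicates 1 and 2, against 6.36% in Input. Mean depth there was 2.58 and 5.04 times that of the long low stretch in the eCLIP replicates, against 1.02 times in Input.

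The first high stretch, 1401 to 1600, averaged 4499 and 2496 reads per position in eCLIP against 5429 in Input, with log2 ratios of its share of 28S depth of 0.62 and 1.09. Replicate 1 was highest at 1537, with 5305 reads, and replicate 2 at 1544, with 4013. The window 1501 to 1550 had 5096 and 3111 reads in eCLIP and 5394 in Input (edgeR log2 fold change 2.05, adjusted p = 0.147). The next window, 1551 to 1600, had 4020 and 3444 reads against 5658 (1.99, edgeR adjusted p = 0.158). In replicate 2 these were the 10th and 9th deepest windows of 28S. In replicate 1 they ranked 20th and 42nd, so the later window was further down the order in replicate 1. Just before these windows, 1451 to 1500 had 4882 and 1941 reads against 5265. Its log2 ratio of shares was nearly the same in both replicates, 0.78 and 0.77.

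The remaining high stretches lie in the last 200 nt of the domain. At 2101 to 2150 the eCLIP replicates averaged 5107 and 2824 reads per position and Input 5948 (edgeR log2 fold change 1.82, adjusted p = 0.158). At 2251 to 2300, the deepest window of the domain in all 3 libraries, they were 5318 and 3532 against 5972 (2.05, edgeR adjusted p = 0.204). Among the 102 windows of 28S it was the 14th deepest in replicate 1, the 6th in replicate 2 and the 58th in Input. Between these stretches eCLIP depth fell to 1104 reads in replicate 1 and 408 in replicate 2, both at position 2196. The next window downstream, 2301 to 2350, was lower in each library, with 5126, 2793 and 5912 reads in replicate 1, replicate 2 and Input.

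The contrast between high and low windows was larger in eCLIP replicate 2. The deepest window had 7.02 times the mean depth of the shallowest in replicate 1, 23.8 times in replicate 2 and 1.29 times in Input. The share of 28S depth was larger in replicate 2 than in replicate 1 in 8 of the 20 windows. It was 2.14 times as large at 1551 to 1600, where the difference was greatest in that direction, and 0.490 times as large at 1751 to 1800, where it was greatest in the other. Unscaled depth moved with this difference. Replicate 1 reached 94.5% of Input depth in its highest window by this measure, 1501 to 1550, and lay above 90% of it at 11.1% of positions of the domain. Replicate 2 reached at most 60.9% in a window and passed 90% at 0% of positions. The part of depth in the different contrast was not tested.

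Depth also changed in steps of 1 base. Rises were matched best by falls 75 nt later in all 3 libraries, among distances from 20 to 200 nt. Within the domain the correlation of rises with later falls was 0.537 and 0.775 for the eCLIP replicates and 0.306 for Input. Such pairs mark blocks of reads with a common start and end. Of the 10 largest steps of each eCLIP replicate, 5 rises and 5 falls, 6 had an opposite step of at least 0.5 times their size at that distance. The rise and the fall of 1 pair can both be among them, and these 6 steps come from fewer than 6 blocks.

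In eCLIP replicate 2 the largest rise was at position 1515, from 2107 to 2622 reads. The largest fall came 75 nt later, at 1590, from 3183 to 2637. This block equals about 2.78% of the replicate's reads in the domain, by the size of its rise. Replicate 1 changed by -10 and -85 reads at the same bases and Input by 10 and -51. The block was therefore seen in replicate 2, inside a stretch that was high in both replicates. A second block of replicate 2 began at 2241 with a rise of 234 reads and ended with a fall of 235 at 2316, beyond the end of the domain. Replicate 1 changed by -4 and 13 there. After the fall at 1590, the next largest of replicate 2 was at 1599, from 1983 to 1736 reads. Replicate 1 fell there from 2952 to 2837.

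In eCLIP replicate 1 the largest paired rise was at 2083, from 4335 to 4732 reads, with a fall of 376 at 2158. Replicate 2 rose by 84 reads at 2083 and fell by 75 at 2158, in the same direction at the same bases. The next was at 2034, with a rise of 355 reads from 1836 in replicate 1 and of 97 from 529 in replicate 2, or 19.3% and 18.3% of the depth before it. The fall 75 nt later was 304 and 28 reads. A rise at 2111 of 294 reads in replicate 1 and 134 in replicate 2 was followed by falls of 275 and 199 at 2186. Input changed by no more than 83 reads at any of these 6 bases. All 10 of the largest steps of replicate 1 went the same way in replicate 2, and 8 of the 10 of replicate 2 went the same way in replicate 1. Relative to the depth before them, 7 and 3 of these reached at least 0.5 times their size in the other replicate. In Input, 7 of the 10 steps of replicate 1 and 10 of the 10 of replicate 2 also had the same sign. Sign alone was counted, and sizes in Input varied widely. Input changed by 3 reads at 1514 and 2241, by 10 at 1515 and by -10 at 1322 and 1589. At 1313 and 2197 it rose by 1310 and 1717. Across the 989 bases, single-base steps correlated between the eCLIP replicates with r = 0.603, and across the rest of 28S with r = 0.629. Reads that are copies of 1 molecule also share their start and end, and their part in these blocks was not tested, since the table gives depth only.

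**Figure D3:**
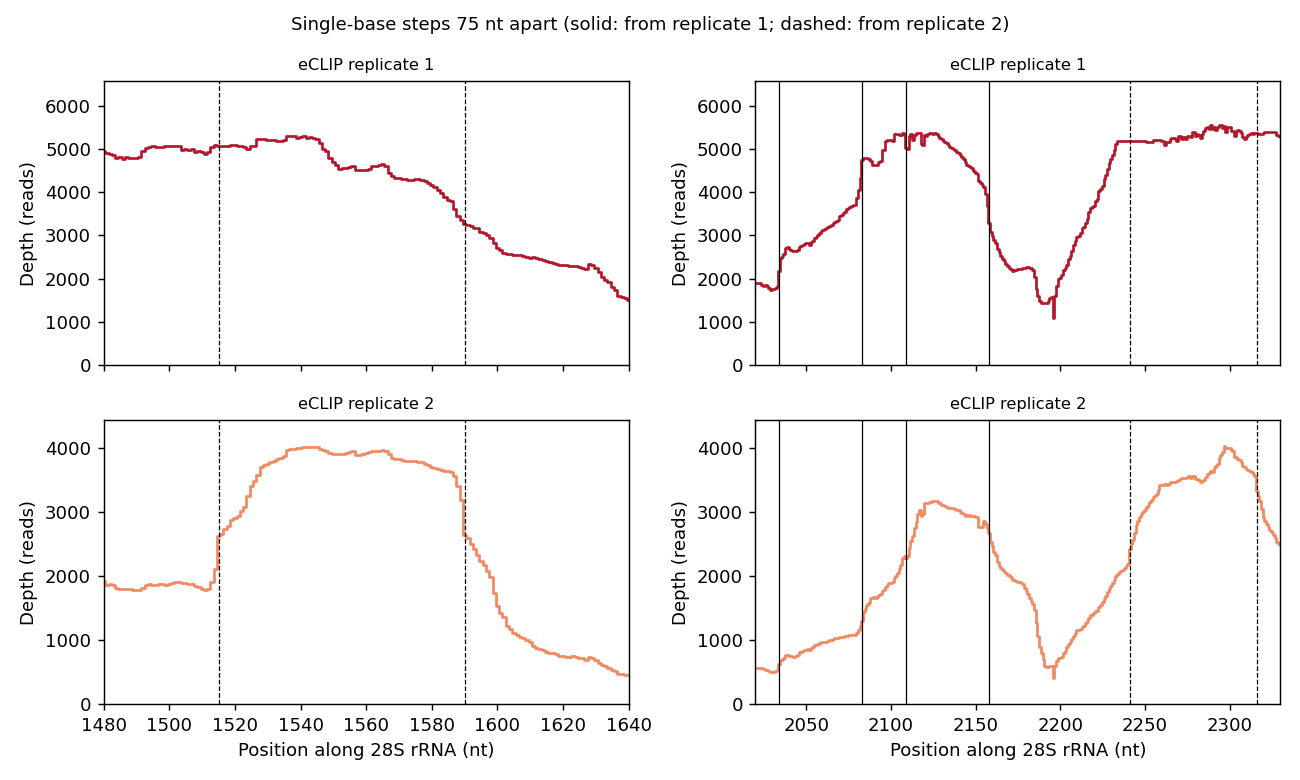
Depth in reads (vertical axis) along 28S (horizontal axis, nt) around the blocks of reads with a common start and end, in eCLIP replicate 1 (top) and replicate 2 (bottom). Vertical lines mark the first base of each block and the base after its last, 75 nt apart, among the 3 largest rises of replicate 1 (solid) and replicate 2 (dashed). The block from 1515 is a step of 515 reads in replicate 2, where replicate 1 changes by -10.

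A sharp dip lay at position 2196 in all 3 libraries. Depth there was 1104 reads in eCLIP replicate 1, between 1588 and 1605 at its neighbours, and 408 in replicate 2, between 589 and 599. In Input it was 2882, between 5820 and 4599. Measured against the lower neighbour, 30.5%, 30.7% and 37.3% of depth was missing. Measured against the base before, Input fell by 50.5%, more than the eCLIP replicates, which fell by 30.5% and 30.7%. Input was also still low at the next base, 2197. On all of 28S, 3 positions had dips of over 20% in every library, and 2 of them lay outside the domain. That of 2196 ranked 3rd in each eCLIP replicate and 2nd in Input.

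The start of the domain held another shared change. Between 1312 and 1313 depth rose from 1826 to 2152 reads in eCLIP replicate 1, from 1112 to 1322 in eCLIP replicate 2 and from 3468 to 4778 in Input, or by 17.9%, 18.9% and 37.8%. Just after it lies the 1-methyladenosine of 28S, which the methyltransferase RRP8 (nucleomethylin) places. It was taken as position 1322 from general knowledge of the numbering, and no sequence was used to check the base. Depth there was 1584 and 859 reads in eCLIP and 4549 in Input. Over the 20 positions from 1313 on, the lowest depth of both eCLIP replicates was at 1323, with 1578 and 845 reads, and in Input it was at 1322. From 1318 to 1322 depth fell by 30.2% in replicate 1, 42.2% in replicate 2 and 8.38% in Input. All 3 libraries were low at or next to this base. The fall was larger in both eCLIP replicates than in Input, which has 1 library and no measure of its own spread.

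**Figure D4:**
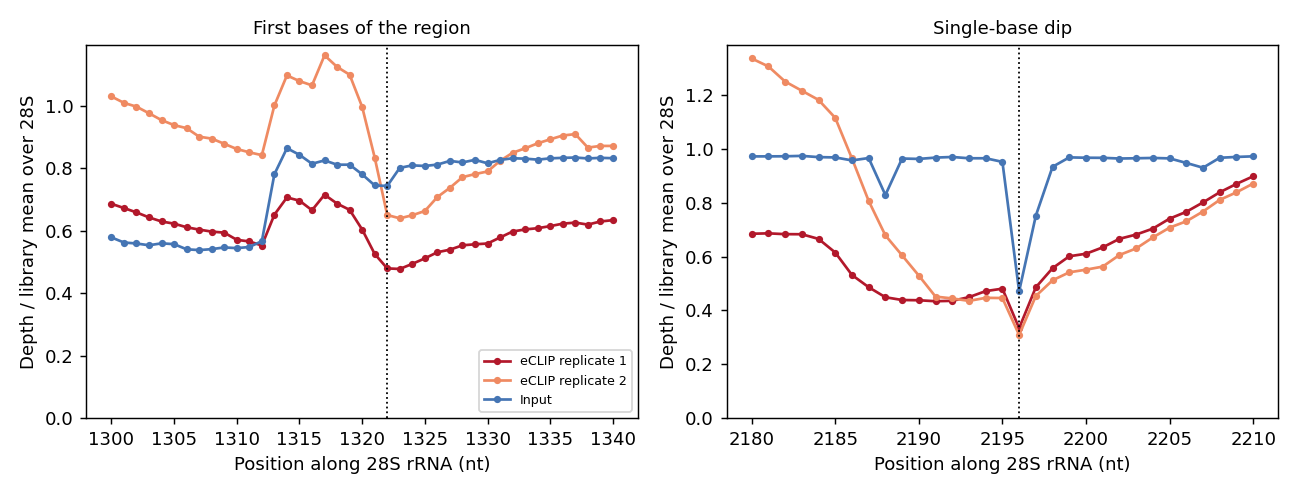
Depth divided by each library's mean over 28S (vertical axis) at single positions (horizontal axis, nt) at the start of the domain (left; dotted line at 1322) and around the dip (right; dotted line at 2196). In all 3 libraries depth rises between 1312 and 1313, is low at 1322 and drops at 2196; at 1323 Input has risen again while both eCLIP libraries are at their lowest.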

How the data were processed

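The authors deposited whole-number counts for each position of 4 rRNAs in 3 libraries, without scaling, per the file headers. STAR and hg19 are named in the submitters' processing notes, without versions or roles; for duplicate removal, no step is stated there. Columns headed IP1 and IP2 were taken as eCLIP samples 1 and 2. Depth was a sum of 17574237, 6930845 and 42783485. Counts were summed in 50-nt windows, assigned to the domain by their middle position, and tested with edgeR 4.0.16 (R 4.3.3; quasi-likelihood test, TMM, filterByExpr, which removed 0 windows; Benjamini-Hochberg at 0.05). A read is counted at each base it covers, so neighbouring windows share reads. The code for this test was first checked on simulated counts with known changes. Log2 ratios per replicate had a pseudocount of 1. Intervals are Clopper-Pearson, on depth divided by 75. Alternatives were other scalings, DESeq2 1.42.0, other windows and ends, no filter, and each replicate left out. Named windows were those that passed, the 5 deepest and 5 shallowest, the 3 highest and 3 lowest by ratio, and those at the ends. Named steps came from the 5 largest rises and 5 largest falls of each eCLIP replicate, not all of which are described. Others named were chosen after their values were seen. The domain, rules and tests were chosen with earlier results of these data known. P-values rest on the spread between these samples only. In edgeR that spread was modelled over all windows, and Input, with 1 library, adds nothing to it.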

Additional observations from a re-analysis of the deposited data

How the results depend on the processing

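The log2 ratio of the domain's share, 0.12, was 0.52 with all 4 rRNAs and 0.73 with 5S in place of 28S as denominator, which by construction also take in the difference of 28S itself between eCLIP and Input. It was 0.042 ± 0.111 (SD, n = 2) with the ends moved inwards by 50 nt, 0.20 ± 0.187 with them moved outwards, 0.16 without the 1% deepest positions and 0.0030 to 0.24 with 1 replicate left out. Of the 20 windows, 1 was called lower and 0 higher under the other scalings, without the filter (which removed 0 windows) and at the middle position. DESeq2's test called 3 lower and 11 higher. Of 40 windows of 25 nt, 3 were lower and 9 higher, and of 10 windows of 100 nt 0 were lower in edgeR's test (1 at an unadjusted p under 0.05) and 4 higher. Outside the domain, 25 of 163 windows of 28S were lower and 13 higher at 25 nt, and 6 of 41 lower and 9 higher at 100 nt. Over all windows of the 4 rRNAs, 36.6% were lower and 7.59% higher at 25 nt, and 33.8% and 17.6% at 100 nt. The cause was not tested. Under its 7 alternatives the window 1751 to 1800 had log2 fold changes from -2.37 to -1.43 and adjusted p up to 0.0433. The value of 1651 to 1700, -0.05, turned to 0.11 with DESeq2's size factors and 0.11 with its test, and that of 1301 to 1350, 0.89, to -0.0080 with the 28S total. Of 91 results for 13 named windows under alternatives, 78 kept their direction and call, 8 gained a call, 2 lost it and 3 reversed. The 78 include the fit without the filter, which removed 0 windows and so kept every result by construction. A pseudocount of 10 moved no mean ratio by more than 0.000309. With 1 eCLIP library and 1 Input no test across windows can be made, so calls were not recomputed without a replicate. No paired analysis was possible because the single Input library carries no number to match. Near-level depth in Input leaves its own differences between windows small, and whether a limit on depth set this was not tested.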

Other observations

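Input held narrow notches. Runs of positions under 85% of the Input median of the domain numbered 10, each 7 nt or shorter, by a rule chosen after the profile was seen. At these 2 bases both eCLIP replicates were below their domain medians of 2664 and 1032 reads too. At 1312 replicate 1 was below its median, with 1826 reads, but replicate 2 was above its own, with 1112. Replicate 1 fell with Input at 1703, from 2121 to 1939 reads, and at 1937, from 1315 to 1164. Replicate 2 fell there from 586 to 520 and from 372 to 310. At 1468 the replicates changed by -14 and 0 reads, and at 1856 by -3 and 5. At 1388 Input fell by 1229 reads from 5080, while eCLIP replicate 1 rose by 227 and replicate 2 fell by 15. The fall of Input came 75 nt after its rise of 1310 reads at 1313, the spacing of blocks with a common start and end. The eCLIP replicates rose by 326 and 210 reads at 1313, without a fall of similar size at 1388. Whether this notch of Input marks the end of such a block was not tested. Input stayed at 4561 or below up to 1393. Over the same bases the eCLIP libraries fell too, replicate 1 from 2981 before them to 2706 at 1392 and replicate 2 from 1370 to 1024 at 1393, and both were lower still at the next base, where Input had risen to 4851. From 2166 to 2172 Input went down to 4123 reads and was back at 4823 at the next base, where replicate 1 rose from 2172 to 2207 and replicate 2 fell from 1938 to 1933. Before this notch the eCLIP replicates had 2525 and 2121 reads. At the single base 2188 Input had 5068 reads between neighbours at 5907 and 5896, where both eCLIP libraries were falling steadily. Only 1 Input library was analysed here, so whether these notches recur was not tested.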
